A study of Ovis aries with 8 samples.

Results

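The genes described here encode proteins of the mitochondrial ribosome and were taken as every symbol in the deposited count table that starts with MRPL or MRPS followed by a digit. This rule gave 66 of the 11247 genes in the table, 41 named for the large subunit (MRPL) and 25 for the small subunit (MRPS). They were measured by poly-A RNA sequencing of the loin muscle longissimus thoracis in 8 castrated Dorper X Santa Inês crossbred lambs. The control diet (CON) was fed to 4 of them, and the other 4 received a diet with 20% soybean molasses (SM20), a sugar-rich co-product of soy processing. Each library came from a separate lamb of a trial with 10 animals per diet, and lambs are numbered here in accession order, which pairs nothing. The sources used here do not give the age of the lambs or the time on the diet.

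Mitochondria carry their own ribosome, which makes the few respiratory chain subunits encoded in mitochondrial DNA. Its ribosomal RNAs come from mitochondrial DNA, whereas every one of its proteins is encoded in the nucleus, made in the cytosol and imported. The large subunit forms peptide bonds and the small subunit reads the messenger RNA. Compared with bacterial ribosomes, the mammalian particle has lost much of its RNA and gained many proteins. Skeletal muscle, and slow oxidative fibres above all, depends on this system for its respiratory capacity.

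Library totals over the listed genes ran from 8675527 to 11210065 counts. All 66 genes passed the filter on low counts, with 41 to 1598 reads per library, so none was left out. Levels are given as CPM, counts scaled to a common library size, after TMM scaling, edgeR's adjustment for differences in RNA composition. The muscle identity of the samples was checked with 15 marker genes, of which the table held 12, among them *ACTA1*, *CKM* and *DES*, and 0 of the 12 had a library without reads.

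Of the 66 mitochondrial ribosomal protein genes, 63 had a negative log2 fold change in SM20 relative to CON, which is 95.5% against 49.3% of the 9779 genes tested. Their median log2 fold change was -0.27, beside 0.01 over all genes tested. The differences were small, from -0.79 for *MRPS9* to 0.20 for *MRPS5*, with a median standard error of 0.14. In the edgeR quasi-likelihood test 0 members reached an adjusted p under 0.05 in either direction. Of all genes tested 5 did so (0.0511%), 0.0102% as lower and 0.0409% as higher. The smallest adjusted p among the members was 0.0815, shared by *MRPL40* and *MRPL11*. At an unadjusted p under 0.05 there were 26 members with a negative and 0 with a positive fold change by edgeR. That is 39.4% of the members, beside 8.45% of all genes with a negative and 9.84% with a positive change. DESeq2, run on the same counts, placed 13 members past 0.05 as lower (19.7%, against 2.18% of all genes) and 0 as higher (against 2.82% of all genes). It gave no adjusted p for 2847 of the 9779 genes tested, 1 of them a member. All DESeq2 shares here count such genes as not called, which lowers the shares of all genes more than those of the members.

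**Figure D1:**
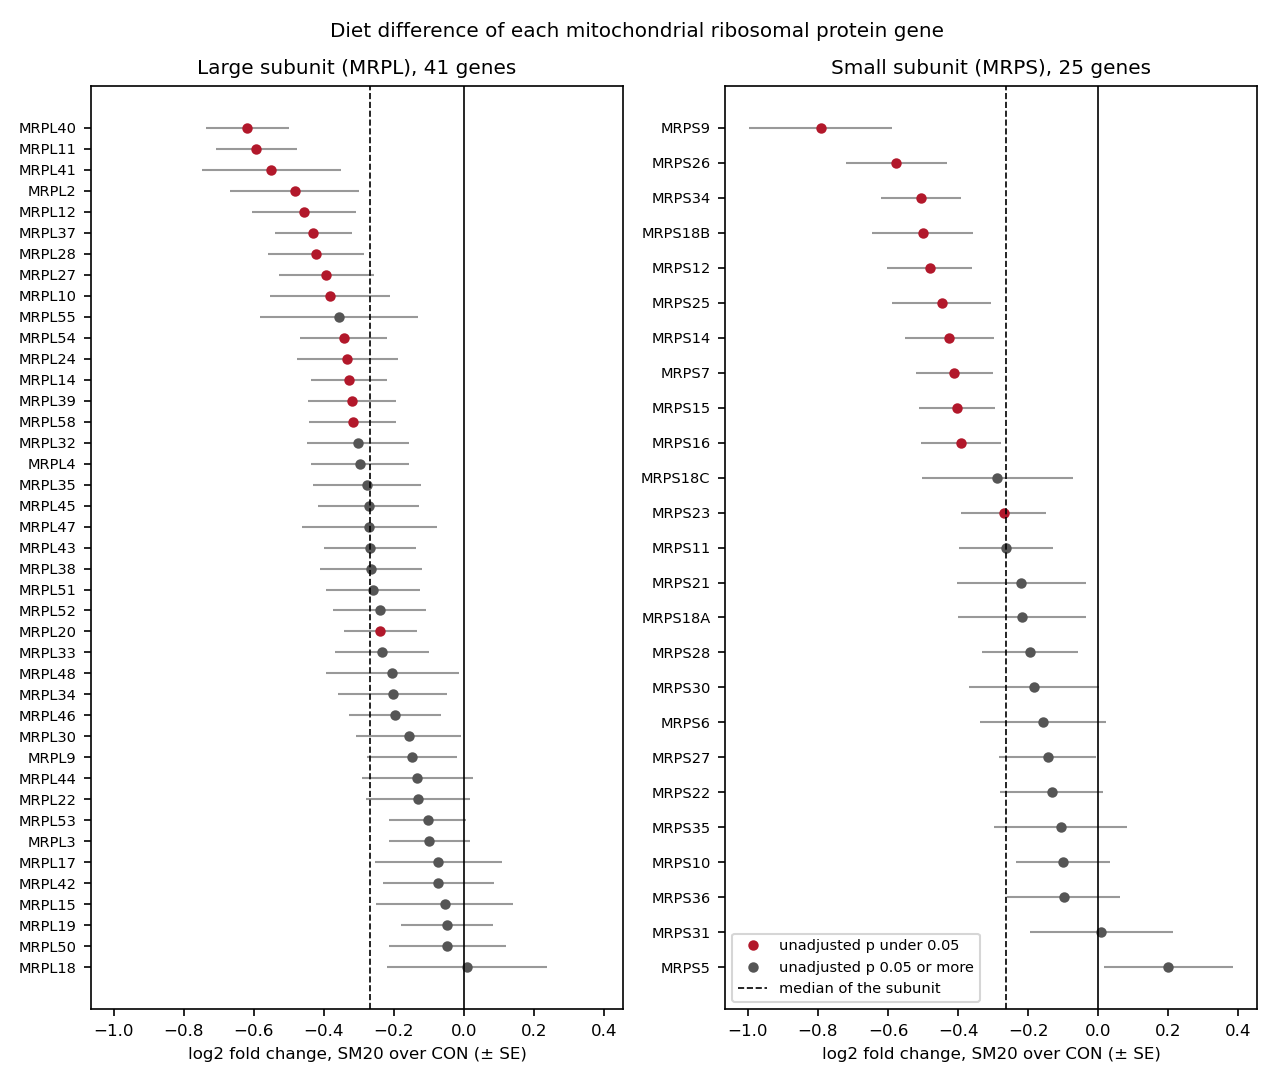
Log2 fold change of SM20 over CON (x axis) for each of the 41 large-subunit and 25 small-subunit genes (y axis), with bars for the standard error and a dashed line at the median of the subunit. Nearly all points lie left of 0, with *MRPS5* on the right together with *MRPL18* and *MRPS31*, which turn negative with upper-quartile scaling, and both medians lie close to -0.27.

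The medians of the large and small subunits were close, while the shares past a threshold over all 66 members were higher in the small subunit. For the large subunit 40 of 41 genes were negative with a median of -0.27, and for the small subunit 23 of 25 with a median of -0.26. An unadjusted p under 0.05 with a negative fold change was found for 15 of 41 large-subunit genes (36.6%) and 11 of 25 small-subunit genes (44%). Over all genes tested this share was 8.45%. DESeq2 called 4 of 41 large-subunit genes (9.76%) and 9 of 25 small-subunit genes (36%) as lower, against 2.18% of all genes. All 4 SM20 lambs lay below all 4 CON lambs for 9 large-subunit genes (22%) and 10 small-subunit genes (40.0%), whereas 5.67% of all genes tested showed this. The reverse order, every SM20 lamb above every CON lamb, occurred for 0 members and for 6.54% of all genes. Among members whose span overlaps no other gene, a subset chosen after seeing the data, the direction of the contrast differed between measures. There 13 of 31 large-subunit and 5 of 13 small-subunit genes had an unadjusted p under 0.05 by edgeR as lower. This share was higher in the large subunit. All SM20 lambs lay below all CON lambs for 8 of these 31 and 4 of these 13, a share still higher in the small subunit. The difference between the subunits in these shares was not tested.

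In single lambs, the mean log2 CPM of the 41 large-subunit genes was 5.35, 5.19, 5.35 and 5.37 in CON lambs 1 to 4. It was 4.94, 5.07, 5.04 and 5.14 in SM20 lambs 1 to 4. After TMM scaling, CON lamb 2 was the lowest of its diet and still above SM20 lamb 4, the highest of the other. The diets thus did not overlap on this scale. For the 25 small-subunit genes the means were 5.39, 5.30, 5.39 and 5.35 in CON and 4.96, 5.09, 5.08 and 5.17 in SM20. On the same scale the diets did not overlap for this subunit either. SM20 lamb 1 was the lowest of the 8 lambs in both subunits. The large-minus-small difference was -0.04, -0.11, -0.04 and 0.01 in CON and -0.02, -0.01, -0.04 and -0.03 in SM20. Its mean changed by 0.02 between diets, less than the pooled standard deviation of 0.04 between lambs of a diet.

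**Figure D2:**
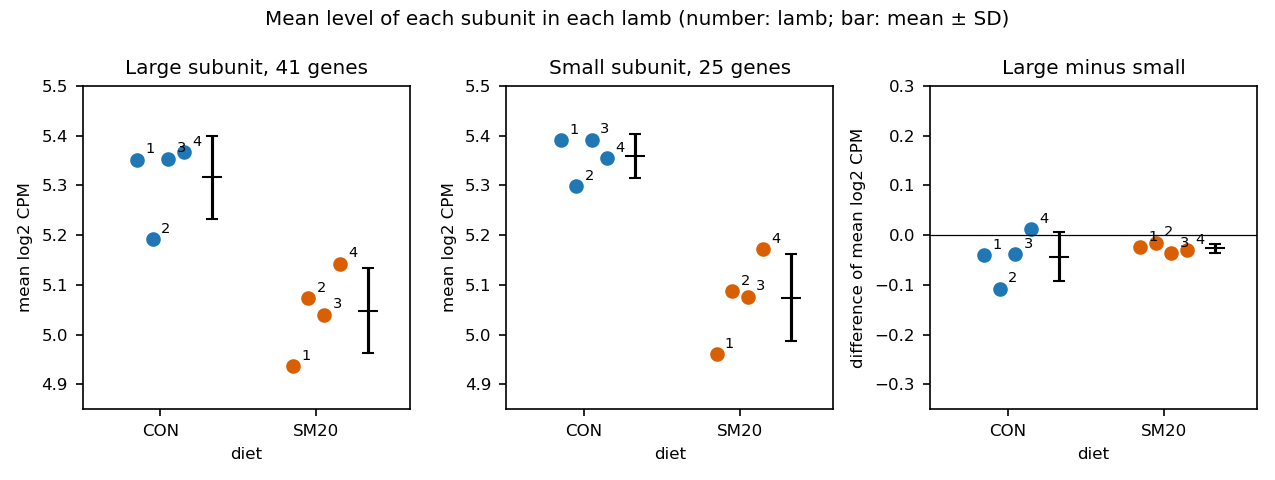
Mean TMM-scaled log2 CPM of the large-subunit genes, of the small-subunit genes and their difference (y axes) for each lamb by diet (x axis). Lamb numbers and bars for mean ± SD (n = 4) are shown. The SM20 lambs lie below the CON lambs in the first 2 panels, and the lambs of both diets share one range in the third.

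The non-overlap of the summed level depended on scaling. Summed over the 66 genes, the TMM-scaled level ranged from 2890 to 3175 CPM in CON and from 2379 to 2755 CPM in SM20. As an unscaled share of all counts, the same genes took 0.266% to 0.347% in CON and 0.246% to 0.279% in SM20, and these ranges overlapped. Non-overlap of the subunit means and of single genes was read only after TMM scaling. The scaling factors ran from 0.885 in CON lamb 1 to 1.10 in CON lamb 3, and from 1.01 to 1.03 in SM20. In bulk tissue, fewer mitochondria-rich cells and less of these RNAs per cell cannot be told apart.

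Among the large-subunit genes, the smallest p belonged to *MRPL40*, a mitochondria-specific protein of the central protuberance, the crown that faces the small subunit. Its level was 53.8, 53.1, 63.9 and 62.9 CPM in CON lambs 1 to 4 and 37.5, 41.6, 36.8 and 36.2 CPM in SM20 lambs 1 to 4. The diets were well apart, with a difference of -0.62 ± 0.12 on the log2 scale (SE, n = 4 lambs a diet) and an adjusted p of 0.0815 by edgeR. Other proteins of the same crown, grouped after their values were seen, had values nearer to 0. *MRPL58*, which descends from a peptide release factor and is also called ICT1, had -0.32 ± 0.12. *MRPL38*, *MRPL46* and *MRPL48* had -0.26 ± 0.15, -0.20 ± 0.13 and -0.20 ± 0.19. *MRPL18*, homologous to a bacterial protein that binds ribosomal RNA in this crown, was the only large-subunit gene with a positive value, which turned negative with upper-quartile scaling. It measured 21.2, 13.1, 23.5 and 19.7 CPM in CON and 12.8, 23.9, 19.1 and 22.2 CPM in SM20. Its diets overlapped fully, and the log2 fold change was 0.01 ± 0.23.

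*MRPL10*, *MRPL11* and *MRPL12* form the stalk and its base, where translation factors dock, and were also grouped after their values were seen. *MRPL11*, at the base, measured 33.7, 33.6, 30.5 and 36.2 CPM in CON against 22.2, 23.1, 21.2 and 22.4 CPM in SM20. Its SM20 lambs were tightly grouped below the CON lambs, with a log2 fold change of -0.59 ± 0.12 (SE) and an adjusted p of 0.0815 by edgeR. *MRPL12*, the flexible arm of the stalk, which also binds the mitochondrial RNA polymerase in human cells, measured 89.7, 73.3, 98.3 and 107.5 CPM in CON. In SM20 it measured 58.4, 72.8, 76.1 and 61.3 CPM, and SM20 lamb 3 lay above CON lamb 2, so the diets overlapped. Its log2 fold change was -0.46 ± 0.15, with an adjusted p of 0.151 by edgeR, and *MRPL10*, the anchor of the stalk, had -0.38 ± 0.17.

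*MRPL37*, a mitochondria-specific protein, had the highest CPM of the large-subunit genes, on a scale not corrected for transcript length. It measured 174.0, 144.9, 153.4 and 146.0 CPM in CON and 111.9, 114.6, 120.2 and 112.2 CPM in SM20. The diets did not overlap, and the log2 fold change was -0.43 ± 0.11 (SE, adjusted p = 0.107 by edgeR). For *MRPL28*, which has a bacterial homologue, CON lambs had 29.3, 27.7, 26.9 and 26.5 CPM and SM20 lambs 19.9, 16.9, 23.6 and 21.9 CPM. Its diets were also apart, at -0.42 ± 0.14 with an adjusted p of 0.149 by edgeR. Of 2 genes for proteins near the catalytic centre, *MRPL2* had -0.48 ± 0.18, with CON lamb 4 highest at 79.6 CPM, and *MRPL3* had -0.10 ± 0.12, a difference that was not tested. *MRPL45*, which ties the ribosome to the inner membrane, had -0.27 ± 0.14. The genes closest to 0 besides *MRPL18* were *MRPL50*, *MRPL19* and *MRPL15*, at -0.05 ± 0.17, -0.05 ± 0.13 and -0.06 ± 0.20.

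In the small subunit, *MRPS34* had the smallest p. This mitochondria-specific protein is known from human patients in whom its loss impairs mitochondrial translation. It measured 61.7, 51.2, 58.7 and 51.6 CPM in CON and 39.7, 41.4, 39.1 and 36.9 CPM in SM20. The diets did not overlap, and the log2 fold change was -0.51 ± 0.11 (SE) with an adjusted p of 0.0916 by edgeR. *MRPS26*, also specific to mitochondria, measured 28.5, 25.2, 28.3 and 22.2 CPM in CON and 15.9, 17.5, 20.4 and 16.1 CPM in SM20. The lowest CON lamb again lay above the highest SM20 lamb, at -0.58 ± 0.14 and an adjusted p of 0.107 by edgeR.

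*MRPS12* is the homologue of the bacterial protein that governs decoding accuracy. Its level was 46.1, 45.5, 46.3 and 40.0 CPM in CON and 27.2, 32.9, 32.6 and 34.8 CPM in SM20. CON lamb 4 was the lowest of its diet but stayed above every SM20 lamb, and the log2 fold change was -0.48 ± 0.12 (adjusted p = 0.107 by edgeR). *MRPS15*, whose bacterial homologue binds early in small-subunit assembly, measured 60.1, 56.8, 57.9 and 65.8 CPM in CON and 46.1, 42.9, 47.9 and 45.0 CPM in SM20. These also did not overlap, at -0.40 ± 0.11 (adjusted p = 0.115 by edgeR).

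*MRPS7*, *MRPS9*, *MRPS10* and *MRPS14* are homologues of proteins in the head of the bacterial small subunit. *MRPS9* had the most negative fold change of all members and wide spread, at 70.4, 43.9, 69.1 and 61.5 CPM in CON and 26.4, 41.2, 44.6 and 29.3 CPM in SM20. SM20 lamb 3 lay above CON lamb 2, and the log2 fold change of -0.79 ± 0.20 had an adjusted p of 0.109 by edgeR. *MRPS7* and *MRPS14* had -0.41 ± 0.11 and -0.42 ± 0.13 with no overlap between diets, and *MRPS10* had -0.10 ± 0.13. *MRPS5*, a body protein beside the messenger RNA entry, had the largest positive value. It measured 76.3, 65.8, 48.5 and 55.1 CPM in CON and 67.0, 64.9, 57.0 and 93.1 CPM in SM20, so the diets overlapped and SM20 lamb 4 was highest. Its log2 fold change of 0.20 ± 0.18 (adjusted p = 0.603 by edgeR) was 0.04 without SM20 lamb 4. *MRPS31* had the other positive value of this subunit, at 42.8, 59.8, 60.3 and 76 CPM in CON and 45.7, 55.4, 58.4 and 81.1 CPM in SM20. Its diets covered the same range, at 0.01 ± 0.20, and the sign was negative with upper-quartile scaling.

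**Figure D3:**
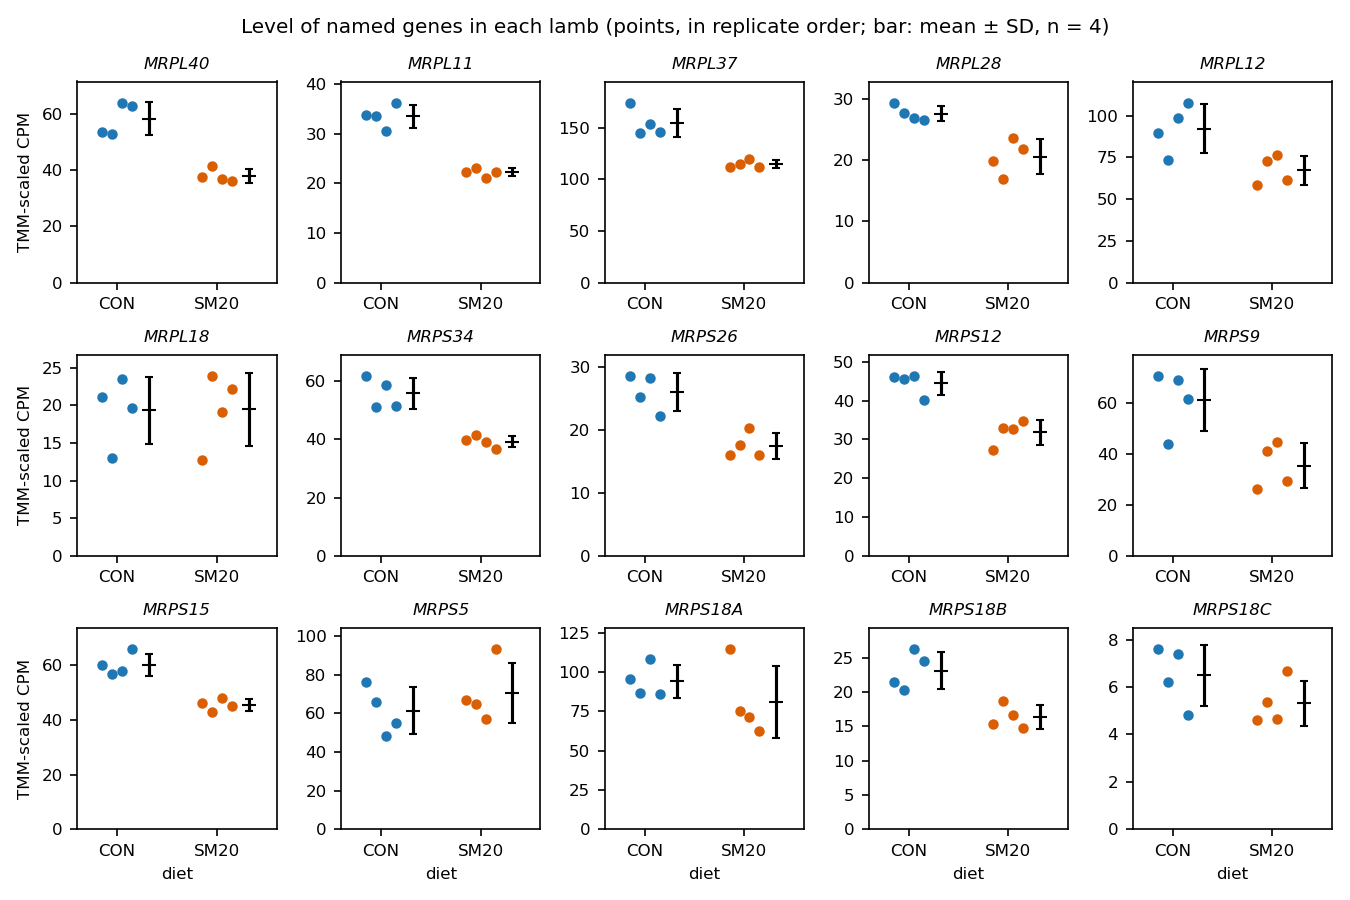
TMM-scaled CPM (y axis, from 0) of 15 named genes in each lamb by diet (x axis), with bars for mean ± SD (n = 4). *MRPL40*, *MRPL11*, *MRPS34*, *MRPS26* and *MRPS12* show separate diets, while *MRPL18* and *MRPS5* show overlapping ones.

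A set of 3 homologues, *MRPS18A*, *MRPS18B* and *MRPS18C*, descends from one bacterial protein. In the known structures the *MRPS18A* protein sits in the large subunit despite its name, as does that of *MRPS30*. *MRPS18B* measured 21.4, 20.3, 26.2 and 24.5 CPM in CON and 15.4, 18.6, 16.6 and 14.7 CPM in SM20. Its diets did not overlap, at -0.50 ± 0.14 (SE, adjusted p = 0.127 by edgeR). *MRPS18A* measured 95.4, 86.6, 108.3 and 85.9 CPM in CON and 114.3, 75.2, 71.6 and 62.5 CPM in SM20. SM20 lamb 1 was the highest of all 8 lambs and the other SM20 lambs were below every CON lamb, so the log2 fold change was -0.22 ± 0.18, or -0.43 without SM20 lamb 1. *MRPS18C*, the member with the fewest reads, measured 7.58, 6.20, 7.39 and 4.80 CPM in CON and 4.60, 5.35, 4.64 and 6.66 CPM in SM20. Its diets overlapped, at -0.29 ± 0.22. The homologues thus differed in value, but differences between them were not tested.

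*MRPS36* carries a small-subunit symbol, but its protein, also called KGD4, is now known as a part of the 2-oxoglutarate dehydrogenase complex. It had the highest CPM among the MRPS symbols, at 109.7, 123.0, 123.7 and 124.6 CPM in CON and 83.8, 118.8, 101.4 and 145.5 CPM in SM20. The SM20 lambs spread on both sides of the CON lambs, and the log2 fold change was -0.10 ± 0.16. With *MRPS18A* and *MRPS30* placed in the large subunit and *MRPS36* left out, the medians were -0.26 for 43 large-subunit and -0.28 for 22 small-subunit genes.

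By origin, the large-subunit genes with a bacterial homologue had a median log2 fold change of -0.27, with 23 of 24 negative. The 19 large-subunit genes specific to mitochondria, placed by structure, were all negative with a median of -0.26. For the small subunit the medians were -0.29 for 13 genes with a bacterial homologue and -0.27 for 9 specific to mitochondria, with 12 and 8 negative. In these classes *MRPS18C* counted as having a bacterial homologue. *MRPS18A* and *MRPS18B* counted as specific to mitochondria, although all 3 descend from one bacterial protein. The medians of the 4 classes thus lay between -0.29 and -0.26, and no difference between them was tested.

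Of 7 symbols listed for proteins of the particle outside the naming rule, 5 were in the table. The other two, *ICT1* and *KGD4*, are alternative names of *MRPL58* and *MRPS36*. The 5 had negative values with a median of -0.34. *AURKAIP1* had -0.39 ± 0.13 and *CHCHD1* -0.34 ± 0.13 (SE), and for both the diets did not overlap, although *CHCHD1* measured 38.3 CPM in both CON lamb 4 and SM20 lamb 2. Factors that work with the ribosome were examined as companion lists. Of 23 genes for ribosome assembly and ribosomal RNA modification, 16 were negative (median -0.17). The pseudouridine synthase-like *RPUSD3* and the GTPase *MTG1* had the smallest p, at -0.55 ± 0.17 and -0.39 ± 0.13. Of 16 translation factors and associated proteins 14 were negative (median -0.20). There *TUFM*, the elongation factor that delivers transfer RNA, measured 133.8, 110.8, 140.1 and 146.7 CPM in CON and 105.1, 102.0, 104.1 and 92.7 CPM in SM20. Its diets did not overlap, with a log2 fold change of -0.40 ± 0.12 and an adjusted p of 0.135 by edgeR. The initiation factor *MTIF3* had -0.30 ± 0.11.

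The list for mitochondrial transcription and RNA processing was mixed, with 8 of 17 negative and a median of 0.03. *FASTK*, a regulator of mitochondrial RNA, had -0.62 ± 0.13 (SE, adjusted p = 0.0873 by edgeR), and *GRSF1*, of the mitochondrial RNA granule, had 0.43 ± 0.13 (adjusted p = 0.134 by edgeR). The diets did not overlap for either, in opposite directions. In these 4 lists 0 genes reached an adjusted p under 0.05 by edgeR, beside 0.0511% of all genes tested. Outside them, 47 of 48 cytosolic ribosomal protein genes were negative with a median of -0.29, and 32 of 32 complex I subunit genes with a median of -0.45. The negative values were thus shared with other gene families, and no difference between families was tested.

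**Figure D4:**
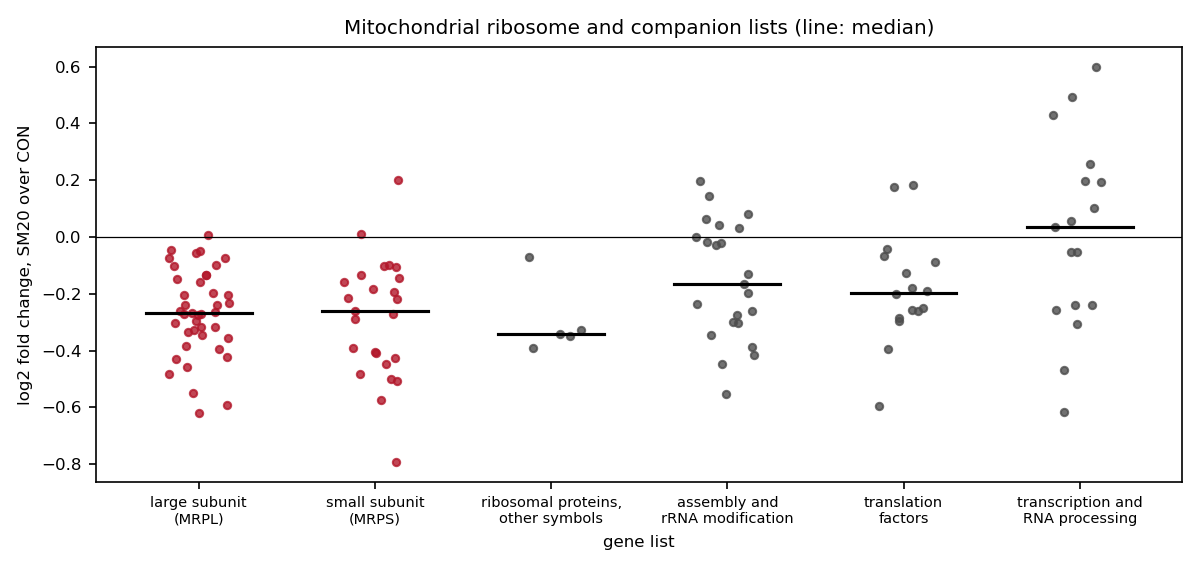
Log2 fold change of SM20 over CON (y axis) of each gene in the 2 subunits and the 4 companion lists (x axis), with a line at each median. The subunits lie around -0.27, while the transcription and RNA processing genes scatter on both sides of 0.

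The fold change also varied with the length of the gene on the chromosome. Spans were read from RefSeq gene models of assembly ARS-UI_Ramb_v3.0 and cover 64 of the 66 members and 96.0% of the genes tested. The median span was 7453 bp for the members and 28881 bp for all genes tested. Over all tested genes other than the members, the median log2 fold change was -0.17 in the shortest of 4 equal-sized span classes and 0.17 in the longest. The Spearman correlation of span and fold change over all tested genes was 0.39, as a description across genes, which are not independent. Of the members, 40 belonged to the shortest class, with a median of -0.30. The other members had medians of -0.22 (12 genes), -0.13 (9 genes) and -0.14 (3 genes) in the next 3 classes, where the other genes had -0.04, 0.11 and 0.17. In each class the median of the members lay below that of the other genes, but the part of gene length in the result was not tested.

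**Figure D5:**
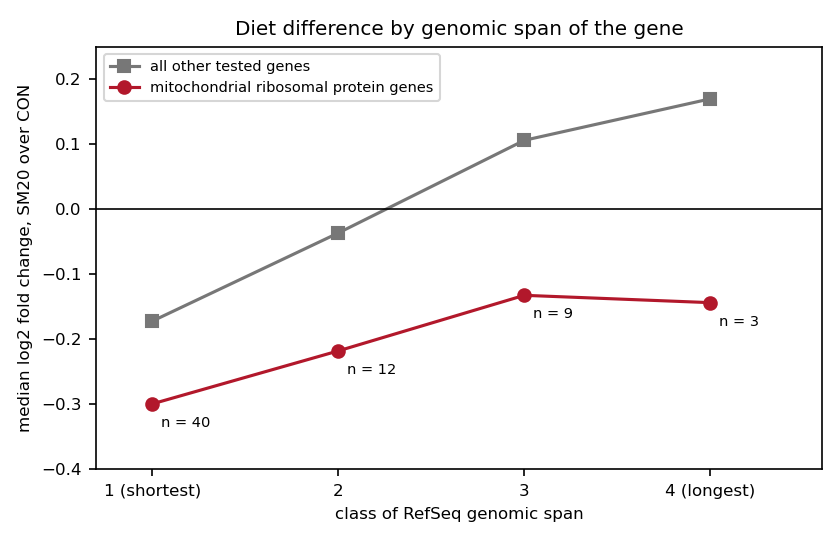
Median log2 fold change of SM20 over CON (y axis) by class of RefSeq genomic span (x axis) for the mitochondrial ribosomal protein genes, with their number, and for all other tested genes. From the shortest to the longest class the medians went from -0.30 to -0.14 for the members and from -0.17 to 0.17 for the other genes.

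Fibre type markers were read beside the members. The slow-fibre list, of which 9 of 10 genes were in the table with no library at 0 reads, had 9 of 9 negative with a median log2 fold change of -0.56. Its summed level ranged from 10983 to 26356 CPM in CON and from 11354 to 16154 CPM in SM20. Summed levels of endothelial (10 of 10 genes in the table), adipocyte (7 of 8), fibroblast (8 of 8), macrophage (8 of 9) and heat shock (8 of 9) lists overlapped between the diets, and 0 of their genes had a library without reads. Of the endothelial genes 8 of 10 were negative with a median of -0.26, and of the adipocyte genes 6 of 7 with a median of -0.23, close to the members' median. The skeletal muscle list, which shares *MYH7* and *TNNT1* with the slow-fibre list, was as close, with 10 of 12 negative and a median of -0.25. Its 2 positive genes were *NEB* (0.65 ± 0.14, SE) and *RYR1* (0.35 ± 0.17). *NEB* had the smallest p of this list, with an adjusted p of 0.0873 by edgeR, and its diets did not overlap. The fibroblast and macrophage lists had medians of 0.09 and 0.00, with 3 of 8 and 4 of 8 negative. In the heat shock and stress list (median 0.08) 3 of 8 genes were negative, among them *ATF3* at -0.94 ± 0.85. Another 3 had an unadjusted p under 0.05 by edgeR as higher, beside 9.84% of all genes. These were *FOS* (3.24 ± 1.0, SE), *EGR1* (1.71 ± 0.63) and *DNAJB1* (0.59 ± 0.22), and the diets overlapped for each. *FOS* measured 11.7, 18.1, 5.66 and 4.17 CPM in CON and 5.16, 294, 54.9 and 21.1 CPM in SM20. SM20 lamb 2 was also the highest for *EGR1*, at 24.7 CPM. The part of cell composition or stress in the result was not tested.

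Several members share their locus with another gene, and the sources used here do not give the strand setting of the counting. In the RefSeq annotation 20 of the 64 matched members overlap the span of another gene, among them *MRPS12*, *MRPS34* and *MRPS7*. *MRPL55* overlaps *GUK1*, which had a log2 fold change of -0.75 beside -0.36 for *MRPL55*. *MRPS7* had -0.41 beside -0.46 for its neighbour *MIF4GD*, and *MRPL14* had -0.33 beside 0.19 for *TMEM63B*. *MRPS34* had -0.51 beside -0.50 for *EME2*, and *MRPL41* had -0.55 beside -0.33 for *PNPLA7*. The other tested partners were positive: *RBKS* (0.03), *ACTL6A* (0.06) and *ABRAXAS1* (0.38). Their members *MRPL33*, *MRPL47* and *MRPS18C* had -0.23, -0.27 and -0.29. The 44 members that overlap no other gene had 43 negative values and a median of -0.27. The 20 that do overlap had 18 negative values and a median of -0.27. An unadjusted p under 0.05 by edgeR as lower was found for 18 of the 44 and 7 of the 20, beside 8.45% of all genes tested.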

How the data were processed

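The deposited table of 8 libraries holds raw read counts, whole numbers for each gene symbol, which the authors did not normalize. The tools named in the submitters' processing notes were STAR and featureCounts, with Trim Galore and cutadapt for trimming, and DESeq2. The versions, genome build, annotation and strand setting are not stated in the sources used here. Per the labels' protocols, RNA came from RNeasy Mini columns and libraries from the TruSeq Stranded mRNA kit. The deposited sample sheet gave the diet in words, which matched the labels for all 8 libraries.

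Diets were compared with the quasi-likelihood test of edgeR 4.0.16 (R 4.3.3) on the whole table, with TMM scaling, a minimum count of 10 in its expression filter (9779 genes tested) and Benjamini-Hochberg adjustment over them. DESeq2 1.42.0 was an alternative, on the same filtered counts; it gave no adjusted p for 2847 genes, 1 of them a member. Other alternatives were library size alone, upper-quartile scaling, DESeq2 size factors, no filter, a mean of at least 1 CPM, leaving out each library, and subunits by structure. Log2 CPM used a prior count of 2. The standard error is the fold change divided by the square root of F. The median standard error over all genes was 0.20, which holds both the spread between the 4 lambs of a diet and counting error. On counts simulated for this comparison, of which 9704 genes were tested, 90.8% of genes changed 3-fold, 66.2% changed 2-fold and 16.4% changed 1.5-fold were recovered. Genes named with every lamb's value were the 5 smallest p, up to 2 largest positive changes and the highest CPM of each subunit, plus the *MRPS18* homologues. The 2 smallest p of each of the 4 companion lists of mitochondrial genes were also named, but not those of every marker list. Genes named beyond this rule were chosen for their role or after their values were seen. Members and lists were chosen with earlier results of these data known, so lists are described by counts and medians.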

Additional observations from a re-analysis of the deposited data

Results flagged for a closer look

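In 3 of 40 groups of 4 lambs examined (the named genes and subunit means, by diet), 1 lamb stood apart from the other 3 by more than Dixon's 95% critical value; chance flags about 1 in 20. *MRPS12* measured 40.0 CPM in CON lamb 4, against 45.5 to 46.3 CPM in the other CON lambs. *MRPS36* measured 109.7 CPM in CON lamb 1, against 123.0 to 124.6 CPM in the others. The mean log2 CPM of the large-subunit genes was 5.19 in CON lamb 2, against 5.35 to 5.37 in the others. Without CON lamb 2 the median log2 fold change of the large subunit was -0.33.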

How the results depend on the processing

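The count of members past an adjusted p of 0.05 was 0 in both directions under every edgeR setting, and 13 lower and 0 higher with DESeq2. Leaving out 1 library each left 0 members past the threshold, but also 0 of all genes tested, so this count is not particular to the members. At an unadjusted p under 0.05 by edgeR there were 19 to 29 lower and 0 higher members. Over all genes these fits placed 1476 to 1876 at that level, in either direction. These fits gave 37 to 41 negative large-subunit and 21 to 24 negative small-subunit genes, medians of -0.33 to -0.21 and -0.30 to -0.23, and a large-minus-small difference of medians between -0.068 and 0.050. That difference was 0.04 without SM20 lamb 1, 0.050 without SM20 lamb 2, -0.068 without CON lamb 2 and 0.03 without CON lamb 4, and -0.053 when members overlapping another gene were left out, which was chosen after seeing the data. The cause was not tested. Over the other settings the medians ran from -0.31 to -0.23 and from -0.30 to -0.22, and the lower members at an unadjusted p under 0.05 from 18 with library size alone to 30 with upper-quartile scaling. Those 2 scalings moved the median of all genes by 0.05 and -0.04. They placed 1586 and 1845 of all genes at an unadjusted p under 0.05 by edgeR, in either direction.

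The sign changed for members near 0. With upper-quartile scaling *MRPL18* and *MRPS31* had -0.029 each. *MRPL18* ran from -0.15 to 0.17, *MRPS31* from -0.17 to 0.14 and *MRPS36* from -0.25 to 0.019 when 1 library was left out. No paired analysis was possible because the labels give no replicate numbers shared by the diets.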
